A study of Mus musculus with 6 samples.

Results

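The genes of mitochondrial fatty acid beta-oxidation were followed in the livers of fasted mice with and without Acss2, which encodes an acetyl-CoA synthetase of the cytosol and nucleus that uses acetate. The set was a fixed list of 32 gene symbols covering carnitine supply, the carnitine shuttle, the acyl-CoA dehydrogenases, the hydratase, dehydrogenase and thiolase steps, the isomerases, and electron transfer. Of these, 31 were found among the 12366 genes of the deposited table and all 31 were tested among 9355 genes. Tmlhe, the first enzyme of carnitine synthesis, was not analysed here. The mice were C57BL/6 males kept on chow until 22 weeks of age and then fasted for 48 h, and they were either Acss2-/- (Acss2-KO, 3 libraries) or wild type (WT, 3 libraries). The sources used here do not give how the Acss2 allele was made or whether the deletion was restricted to certain cells. Libraries were prepared from whole-liver RNA, so fewer cells of a type and less RNA per cell cannot be told apart. Since the labels tie no library to an animal, the spread behind each p-value is that between libraries and may be technical.

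Beta-oxidation shortens fatty acids inside mitochondria and hands their electrons to the respiratory chain. Long-chain acyl groups enter on carnitine, a step that malonyl-CoA inhibits at CPT1. They then pass repeatedly through a flavin-linked dehydrogenase, a hydratase, an NAD-linked dehydrogenase and a thiolase. In the fasted liver this pathway supplies energy for gluconeogenesis and acetyl-CoA for ketone bodies.

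Acss2 was measured at 1.37, 3.56 and 2.35 CPM (reads per 1e6 reads) in Acss2-KO and at 74.0, 81.0 and 73.5 CPM in WT (log2 fold change -4.54, SE 0.24, limma adjusted p = 2.57e-05). Estimated depth was 21.8 to 28.6 M reads in Acss2-KO and 23.3 to 30.8 M reads in WT. Summed hepatocyte markers lay between 114443 and 124728 CPM in Acss2-KO and between 92822 and 112518 CPM in WT. Alb alone averaged 79085 CPM in Acss2-KO and 69738 CPM in WT. Of 9 tested markers 2 were higher, among them Cps1 (11684 CPM in Acss2-KO, 2508 CPM in WT). Ttr was the 1 lower (1260 CPM in Acss2-KO, 4260 CPM in WT). Acss2-KO replicate 1 stood apart in skeletal muscle markers, of which 7 summed to 429.5 CPM there, to 1.09 and 11.7 CPM in Acss2-KO replicates 2 and 3, and to between 0 and 3.74 CPM in WT. Each of the 7 was listed at 0 in at least 1 library, Acta1 at 199 CPM and Myh1 at 115 CPM led the signal in Acss2-KO replicate 1, and Myh4 was listed at 0 there. Kupffer cell markers summed to between 145 and 232 CPM in Acss2-KO and between 264 and 771 CPM in WT, with 4 of 11 tested markers lower and 0 higher. Erythroid markers summed to between 41.2 and 67.0 CPM in Acss2-KO and between 162 and 280 CPM in WT, with 5 of 5 lower. Of all tested genes, 23.1% were lower and 13.4% higher. The part of these signals in the results below was not tested, and the count of beta-oxidation genes without Acss2-KO replicate 1 is given beside the main count.

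Of the 31 beta-oxidation genes, 10 were lower in Acss2-KO and 0 were higher, while 23.1% of all tested genes were lower and 13.4% higher (36.5% in either direction, limma with Benjamini-Hochberg adjustment over all tested genes, threshold 0.05). The 10 were Echdc3, Hadh, Acadsb, Bbox1, Echdc1, Acad8, Eci1, Acad9, Acadm and Acaa2. They include the medium-chain dehydrogenase (Acadm), the NAD-linked short-chain hydroxyacyl-CoA dehydrogenase (Hadh), the main thiolase (Acaa2) and the last enzyme of carnitine synthesis (Bbox1). Of 18 alternative settings, Hadh and Bbox1 passed under all 18, Acaa2 under 13 and Acadm under 7. Acadsb and Acad8 act in amino acid breakdown, and Acad9 is a complex I assembly factor that also has dehydrogenase activity. Echdc1 removes ethylmalonyl-CoA, and the reaction of Echdc3 is less well defined. Among genes that handle long chains, Cpt1a, Cpt2, Acadvl, Acadl, Acad11, Hadha and Hadhb did not pass. Their log2 fold changes were -0.86 for Hadhb, -0.73 for Cpt2, -0.24 for Acad11 and between -0.16 and 0.15 for the others. The median log2 fold change (Acss2-KO over WT, on log2(CPM + 1)) was -0.44 over the 31 genes and -0.12 over all tested genes. It was negative for 25 of the 31 (80.6%) and for 57.3% of all tested genes. At an unadjusted limma p under 0.05, 17 of the 31 differed, 2 of them higher. Over all tested genes, 4457 of 9355 differed in either direction at that threshold. All 3 Acss2-KO libraries lay below all 3 WT libraries for 13 of the 31 genes and above them for 2, a total of 48.4%, against 52.9% of all tested genes (32.8% below and 20.1% above). By the authors' deposited table, 5 of the 31 genes passed an adjusted p of 0.05, all 5 of them lower. Of all its genes, 27.2% passed in either direction and 14.7% passed as lower. The 5 members, Echdc3, Hadh, Bbox1, Acadsb and Echdc1, are all among the 10. Under each of 4 other scalings 2 of the 31 genes were higher, Slc22a5 and Mlycd, and 9 were lower (8 with quantile scaling). Over all tested genes 18.7% were then higher and 18% lower with median-of-ratios scaling, 17.7% and 19.3% with upper-quartile, 19% and 17.5% with trimmed-mean, and 19.1% and 17.4% with quantile scaling. On leaving out Acss2-KO replicate 1, 6 of the 31 genes were lower, against 17.3% of all tested genes. The number was 15 against 25.7% without Acss2-KO replicate 2, and 4 against 13.2% without Acss2-KO replicate 3. It was 4 against 14% without WT replicate 1, 5 against 14.5% without WT replicate 2, and 9 against 21% without WT replicate 3. In the fits with 4, 5 or 6 lower, the share of the 31 genes was near that of all tested genes. The same held for the share lower in the authors' deposited table. The share of the 31 genes lay further above that of all tested genes in the main fit and without Acss2-KO replicate 2 or WT replicate 3.

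**Figure D1:**
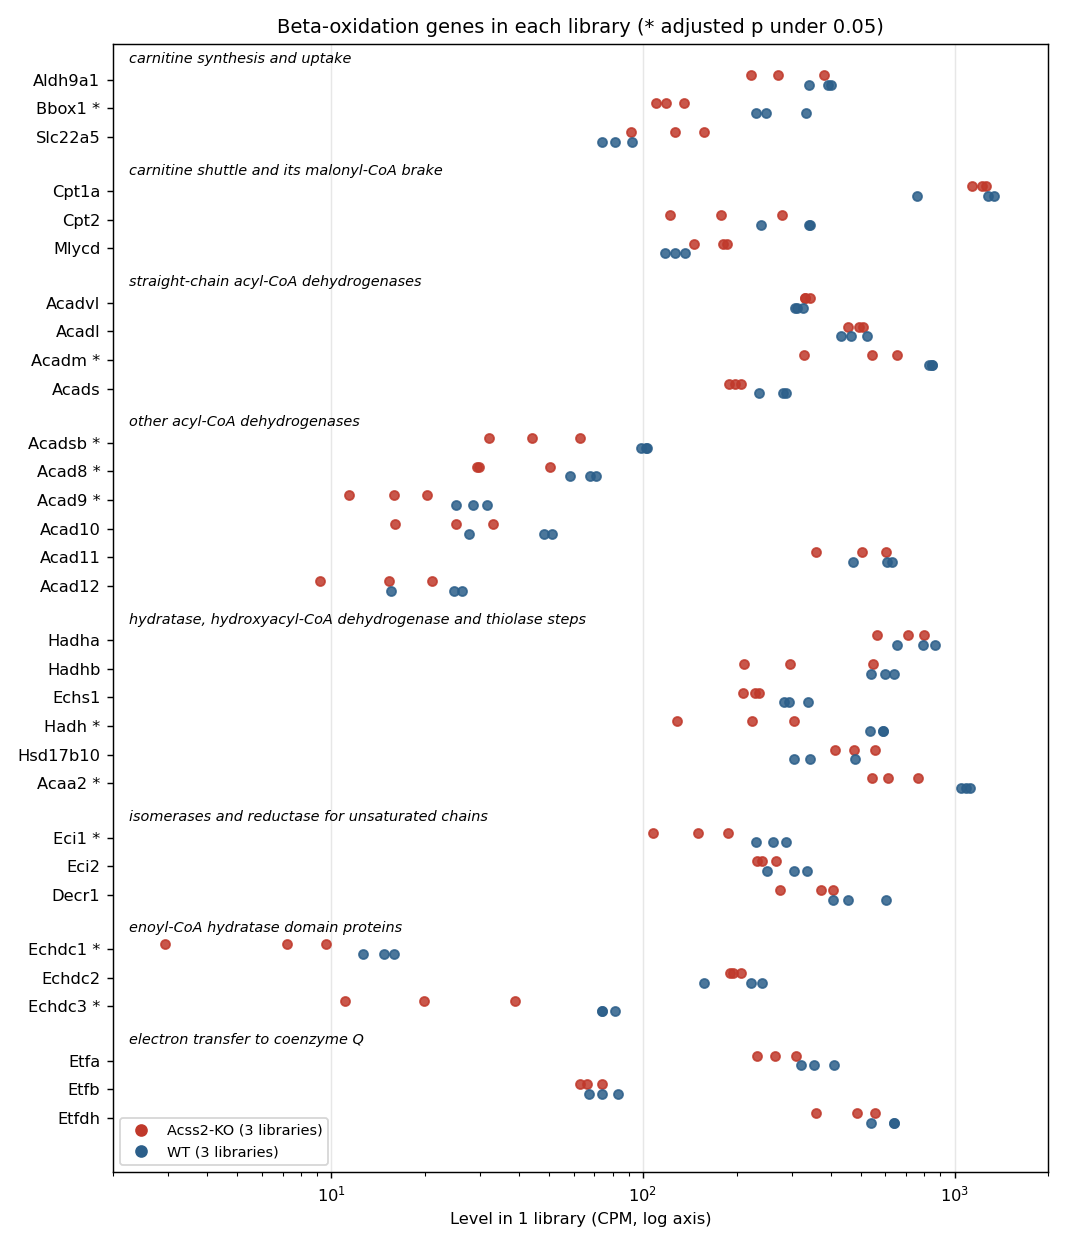
Level of each of the 31 beta-oxidation genes in every library, in CPM on a log axis, grouped by role, with Acss2-KO libraries in red above WT libraries in blue. An asterisk marks the 10 genes with an adjusted p under 0.05, and for all 10 the red points lie left of the blue points.

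Carnitine, on which acyl groups cross into the mitochondrion, is made in the liver or taken up from blood. Of 3 tested genes 1 fell, against 23.1% of all tested genes. Bbox1, the butyrobetaine hydroxylase that completes carnitine synthesis (ENSMUSG00000041660, chromosome 2, 110262697 to 110314560), was at 110, 135 and 119 CPM in Acss2-KO and at 231, 249 and 333 CPM in WT. The means were 121 ± 12.9 CPM in Acss2-KO and 271 ± 54.6 CPM in WT (SD, n = 3 each), which is 2.20-fold less in Acss2-KO (log2 fold change -1.14, SE 0.20, adjusted p = 0.0042). The highest Acss2-KO library lay below the lowest WT library, and the gene passed under all 18 alternative settings. In the RefSeq annotation the Bbox1 locus shares 19055 bases with the noncoding RNA gene Gm30319, which has no level here, and the use of strand in counting is not given. Aldh9a1, which makes butyrobetaine from its aldehyde, averaged 291 ± 80.6 CPM in Acss2-KO and 378 ± 33.4 CPM in WT (log2 fold change -0.41, adjusted p = 0.20). It passed without Acss2-KO replicate 2 (adjusted p = 0.045). Slc22a5, the plasma membrane carnitine transporter, went the other way at 127, 91.8 and 158 CPM in Acss2-KO and 92.4, 74.0 and 81.6 CPM in WT. Its log2 fold change of 0.57 (95% interval 0.06 to 1.07, adjusted p = 0.074) did not pass, and the groups overlapped at Acss2-KO replicate 2. It passed without that library (adjusted p = 0.015) and under the 4 other scalings (0.031 to 0.039).

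None of the 3 tested genes of the shuttle and of malonyl-CoA removal passed. Cpt1a, the outer membrane palmitoyltransferase that malonyl-CoA inhibits, was at 1261, 1226 and 1136 CPM in Acss2-KO and at 1278, 1342 and 755 CPM in WT. The log2 fold change was 0.15 (95% interval -0.43 to 0.72, adjusted p = 0.67). The Acss2-KO libraries lay within the WT range, which was set by the low WT replicate 3, and without that library the sign turned (-0.12). Cpt2, the inner membrane partner that returns the acyl group to CoA, was at 122, 280 and 179 CPM in Acss2-KO and at 345, 340 and 239 CPM in WT (log2 fold change -0.73, adjusted p = 0.092). The groups overlapped at Acss2-KO replicate 2, without which it passed (log2 fold change -1.04, adjusted p = 0.013). Mlycd, which breaks down malonyl-CoA, was at 181, 146 and 186 CPM in Acss2-KO and at 136, 127 and 118 CPM in WT (log2 fold change 0.42, 95% interval 0.01 to 0.83, adjusted p = 0.096). All 3 Acss2-KO libraries lay above all 3 WT libraries, and the gene passed as higher under the 4 other scalings (adjusted p = 0.031 to 0.038).

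The enzymes that make malonyl-CoA, from a connected list, moved in opposite directions. Acacb, the acetyl-CoA carboxylase of the outer mitochondrial membrane, was at 165, 115 and 149 CPM in Acss2-KO and at 64.4, 62.2 and 45.6 CPM in WT (log2 fold change 1.30, SE 0.21, adjusted p = 0.0030). Acaca, the cytosolic carboxylase, was at 24.9, 48.2 and 25.5 CPM in Acss2-KO and at 77.2, 81.0 and 54.2 CPM in WT (log2 fold change -1.13, SE 0.28, adjusted p = 0.014). Neither gene overlapped between the genotypes, and Acaca lost its call without Acss2-KO replicate 3 (adjusted p = 0.062). The ratio of Acacb to Acaca in CPM was 6.63, 2.38 and 5.86 in the Acss2-KO libraries and 0.835, 0.768 and 0.841 in the WT libraries. The exact permutation test gave p = 0.1, two-sided, the smallest that 3 against 3 libraries allow. In all, 4 ratios between genes were computed, and 3 of them gave this smallest p. Slc25a20, the carrier that exchanges acylcarnitine for carnitine and was chosen after its value was seen, averaged 197 ± 25.8 CPM in Acss2-KO and 197 ± 6.22 CPM in WT (SD, n = 3 each, adjusted p = 0.99). Cpt1b, the muscle form of the outer membrane enzyme, was at 4.50, 2.35 and 3.86 CPM in Acss2-KO, and at 1.28 CPM in WT replicate 1 and listed at 0 in the other WT libraries. It was chosen after its values were seen and fell below the filter of the test, while the authors' deposited table gives it a log2 fold change of 2.38 (adjusted p = 3.2e-07), and muscle markers were high in Acss2-KO replicate 1 and low in the other 2 Acss2-KO libraries. Of the 7 tested genes of this connected list, 2 were higher and 3 lower (1 lower without Acss2-KO replicate 3). The shares over all tested genes were 13.4% and 23.1%. The higher count was 4 with no filter on low values and 1 with a minimum of 20 CPM. Crot, the peroxisomal carnitine octanoyltransferase, averaged 405 ± 136 CPM in Acss2-KO and 1206 ± 176 CPM in WT (SD, n = 3 each, log2 fold change -1.62, SE 0.27, adjusted p = 0.0034). Slc25a29, a mitochondrial carrier mainly of basic amino acids, was higher (log2 fold change 1.56, SE 0.28, adjusted p = 0.0041).

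**Figure D2:**
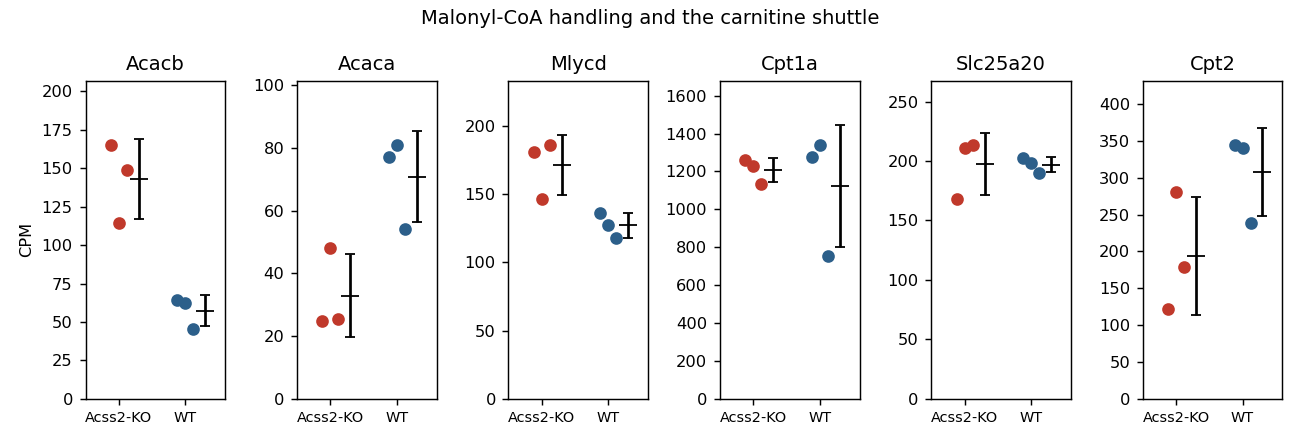
CPM of the malonyl-CoA and carnitine shuttle genes in each library (points), with the mean and SD of 3 libraries beside them, Acss2-KO left and WT right, each panel with its own linear axis from 0. Acacb lies above WT and Acaca below WT in all 3 Acss2-KO libraries, while Cpt1a and Slc25a20 overlap.

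The straight-chain acyl-CoA dehydrogenases start each round, each on its own chain lengths. Of 4 tested genes 1 fell, against 23.1% of all tested genes. Acadm, the medium-chain enzyme (ENSMUSG00000062908, chromosome 3, 153922357 to 153944632), was at 329, 653 and 545 CPM in Acss2-KO and at 849, 826 and 849 CPM in WT. Means were 509 ± 165 CPM in Acss2-KO and 841 ± 13.4 CPM in WT (SD, n = 3 each, log2 fold change -0.78, SE 0.27, adjusted p = 0.046). The groups did not overlap, and the Acss2-KO libraries spread far more than the WT libraries. The call was the least stable of the 10: it was lost under the 4 other scalings (adjusted p = 0.077 to 0.088) and with a minimum of 20 CPM (0.051). It was also lost when 1 library was omitted, with adjusted p = 0.11 for Acss2-KO replicate 1, 0.096 for Acss2-KO replicate 3, 0.11 for WT replicate 1, 0.10 for WT replicate 2 and 0.10 for WT replicate 3. Acadl, the long-chain enzyme, was at 455, 508 and 495 CPM in Acss2-KO and at 523, 465 and 434 CPM in WT (log2 fold change 0.04, 95% interval -0.38 to 0.46, adjusted p = 0.88). The ranges overlapped over most of their width, and the sign turned without WT replicate 3 (-0.02). Acadvl, the very-long-chain enzyme of the inner membrane, averaged 336 ± 8.11 CPM in Acss2-KO and 316 ± 9.17 CPM in WT (log2 fold change 0.09, adjusted p = 0.72). Its 3 Acss2-KO libraries lay above its 3 WT libraries by a small margin. Acads, the short-chain enzyme, averaged 198 ± 8.90 CPM in Acss2-KO and 269 ± 28.7 CPM in WT (log2 fold change -0.43, adjusted p = 0.086). Its Acss2-KO libraries all lay below WT, and it passed without WT replicate 3 (adjusted p = 0.034).

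The other acyl-CoA dehydrogenases had negative fold changes in 6 of 6 cases, against 57.3% of all tested genes. Their median log2 fold change was -0.80, and 3 of the 6 fell, against 23.1% of all tested genes. Acadsb, which acts on short branched chains from isoleucine (ENSMUSG00000030861, chromosome 7, 131410601 to 131448944), was at 32.0, 62.7 and 44.0 CPM in Acss2-KO and at 103, 103 and 99.0 CPM in WT. Its log2 fold change was -1.17 (SE 0.24, adjusted p = 0.0065), and it passed under all 18 alternatives. Acad8, the isobutyryl-CoA dehydrogenase of valine breakdown (ENSMUSG00000031969, chromosome 9, 26974135 to 26999566), was at 29.4, 50.2 and 29.9 CPM in Acss2-KO and at 67.6, 71.0 and 58.5 CPM in WT (log2 fold change -0.87, SE 0.23, adjusted p = 0.018). The genotypes were separate for both genes. Acad8 lost its call without Acss2-KO replicate 1 (adjusted p = 0.054), Acss2-KO replicate 3 (0.079), WT replicate 1 (0.055) or WT replicate 2 (0.057). Acad9, an assembly factor of respiratory complex I that also has dehydrogenase activity (ENSMUSG00000027710, chromosome 3, 36065979 to 36092853), was at 11.4, 20.3 and 15.9 CPM in Acss2-KO and at 28.6, 31.6 and 25.1 CPM in WT. The groups did not overlap (log2 fold change -0.83, SE 0.22, adjusted p = 0.018), and the call was lost without Acss2-KO replicate 3 (0.058), WT replicate 1 (0.055) or WT replicate 2 (0.061). Acad11, which acts on long chains and hydroxy acids, was at 360, 600 and 505 CPM in Acss2-KO and at 630, 609 and 471 CPM in WT (log2 fold change -0.24, 95% interval -0.80 to 0.31, adjusted p = 0.46). Its ranges overlapped, and in the RefSeq annotation its locus also holds Ackr4, measured at 3.58 CPM in Acss2-KO and 2.44 CPM in WT on average.

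Acad10 and its neighbour Acad12, a related rodent gene on the same strand, did not pass, with mean levels of 24.7 ± 8.57 CPM in Acss2-KO and 42.4 ± 12.8 CPM in WT for Acad10 and of 15.2 ± 5.93 CPM in Acss2-KO and 22.2 ± 5.83 CPM in WT for Acad12. Adjusted p-values were 0.080 for Acad10 and 0.18 for Acad12. Acad10 passed without Acss2-KO replicate 2 (0.027) or WT replicate 3 (0.048), and Acad12 without Acss2-KO replicate 2 (0.046). The Acad12 to Acad10 ratio in CPM was 0.609 ± 0.0295 in Acss2-KO and 0.531 ± 0.0422 in WT (SD, n = 3 each, exact permutation test, two-sided p = 0.1, the smallest possible). The sources used here do not give how reads matching both genes were counted. The RefSeq promoter windows of the pair, 250 bases before to 50 bases after the start, are shown because they are related in sequence: 216 of 345 aligned columns were identical (62.6%). Capitals mark matches to the motif of the transcription factor NRF1, in build GRCm38.p6, at chr5:121660461-121660760 (minus strand) for Acad10 and chr5:121618889-121619188 (minus strand) for Acad12.
Acad10: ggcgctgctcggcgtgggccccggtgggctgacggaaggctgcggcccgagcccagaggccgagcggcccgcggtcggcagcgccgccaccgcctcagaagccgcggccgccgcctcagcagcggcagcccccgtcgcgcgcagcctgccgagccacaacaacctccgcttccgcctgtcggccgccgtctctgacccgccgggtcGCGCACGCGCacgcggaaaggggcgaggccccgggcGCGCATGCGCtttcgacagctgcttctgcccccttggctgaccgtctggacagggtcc
Acad12: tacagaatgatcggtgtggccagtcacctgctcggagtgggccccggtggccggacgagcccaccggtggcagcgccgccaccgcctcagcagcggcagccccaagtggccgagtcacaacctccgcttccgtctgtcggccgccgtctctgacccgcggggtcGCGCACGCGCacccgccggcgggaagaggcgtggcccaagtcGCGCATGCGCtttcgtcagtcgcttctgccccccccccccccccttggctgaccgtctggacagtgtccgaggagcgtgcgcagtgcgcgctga
Each window held the motif at 2 places, the first of them 44 bases before the start in Acad10 and 86 bases before it in Acad12. The NRF1 motif, searched on both strands, was found in the windows of 6 of the 28 genes with one (Acad10, Acad12, Echdc1, Etfb, Etfdh and Slc22a5) and in 4.6% of all 32851 windows. Of these 6 genes only Echdc1 fell, and a match is a description of letters and not a binding site.

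Among the hydratase, hydroxyacyl-CoA dehydrogenase and thiolase genes, 2 of 6 fell and 5 of 6 had negative fold changes. Over all tested genes 23.1% fell and 57.3% had negative fold changes. Hadh, the NAD-linked short-chain hydroxyacyl-CoA dehydrogenase (ENSMUSG00000027984, chromosome 3, 131233419 to 131272101), was at 129, 304 and 224 CPM in Acss2-KO and at 588, 588 and 534 CPM in WT. The level was 2.75-fold lower in Acss2-KO, at 219 ± 87.9 CPM against 570.003 ± 31.4 CPM in WT (SD, n = 3 each, log2 fold change -1.46, SE 0.30, adjusted p = 0.0070). Each Acss2-KO library was far below each WT library, and Hadh passed under all 18 alternatives. Acaa2, the thiolase that releases acetyl-CoA (ENSMUSG00000036880, chromosome 18, 74779197 to 74806207), was at 545, 765 and 613 CPM in Acss2-KO and at 1121, 1090 and 1046 CPM in WT (log2 fold change -0.77, SE 0.20, adjusted p = 0.019). The groups were again separate. The Acaa2 call was lost without Acss2-KO replicate 1 (adjusted p = 0.053), Acss2-KO replicate 3 (0.082), WT replicate 1 (0.069) or WT replicate 2 (0.066).

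The other hydratase and dehydrogenase genes did not pass. Echs1, the short-chain hydratase, averaged 225 ± 13.6 CPM in Acss2-KO and 305 ± 28.6 CPM in WT, with separate groups (log2 fold change -0.44, adjusted p = 0.084). It overlaps Paox by 742 bases at its start, and the use of strand in counting is not given. Hsd17b10, a dehydrogenase of isoleucine breakdown and subunit of the mitochondrial RNase P, was the 1 gene of this group above WT, at 481 ± 71.9 CPM in Acss2-KO and 377 ± 92.5 CPM in WT (log2 fold change 0.37, adjusted p = 0.24).

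Hadha and Hadhb encode the alpha and beta subunits of the trifunctional protein, which carries out the last steps on long chains at the inner membrane. Hadha was at 564, 798 and 709 CPM in Acss2-KO and at 867, 792 and 653 CPM in WT (log2 fold change -0.16, 95% interval -0.66 to 0.33, adjusted p = 0.58). Hadhb was at 296, 549 and 211 CPM in Acss2-KO and at 596, 541 and 639 CPM in WT (log2 fold change -0.86, 95% interval -1.59 to -0.13, adjusted p = 0.065). Hadha overlapped broadly, while Hadhb overlapped at Acss2-KO replicate 2 and passed without that library (log2 fold change -1.24, adjusted p = 0.0035). The Hadhb to Hadha ratio in CPM was 0.525, 0.688 and 0.297 in Acss2-KO and 0.688, 0.683 and 0.979 in WT (exact permutation test, two-sided p = 0.3). The genes lie head to head on chromosome 5, with RefSeq starts 273 bases apart. The Hadhb window (GRCm38.p6, chr5:30155003-30155302, plus strand) is printed because it holds the space between the deposited gene models, and its capitals mark the 85 bases between the deposited end of Hadha and the deposited start of Hadhb.
Hadhb: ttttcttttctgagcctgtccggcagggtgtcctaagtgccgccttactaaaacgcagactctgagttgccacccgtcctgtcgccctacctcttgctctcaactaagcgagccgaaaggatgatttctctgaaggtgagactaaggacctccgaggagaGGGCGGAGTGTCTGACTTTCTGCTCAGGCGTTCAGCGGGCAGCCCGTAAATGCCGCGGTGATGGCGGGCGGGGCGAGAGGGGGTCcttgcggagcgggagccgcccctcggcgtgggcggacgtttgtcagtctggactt

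Of the genes that prepare unsaturated chains, 1 of 3 fell and all 3 had negative fold changes. The shares over all tested genes were 23.1% and 57.3%. Eci1, an enoyl-CoA isomerase of the matrix (ENSMUSG00000024132, chromosome 17, 24426683 to 24439316), was at 108, 187 and 150 CPM in Acss2-KO and at 261, 231 and 288 CPM in WT (log2 fold change -0.84, SE 0.23, adjusted p = 0.023). The groups did not overlap. The call was lost without Acss2-KO replicate 1 (adjusted p = 0.060), Acss2-KO replicate 3 (0.074), WT replicate 1 (0.068) or WT replicate 3 (0.068). Eci2, an isomerase also found in peroxisomes, averaged 247 ± 18.1 CPM in Acss2-KO and 297 ± 42.9 CPM in WT (log2 fold change -0.26, adjusted p = 0.31). Decr1, the dienoyl-CoA reductase, averaged 352 ± 67.8 CPM in Acss2-KO and 488 ± 100.6 CPM in WT (log2 fold change -0.47, adjusted p = 0.15). Both overlapped between the genotypes.

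The enoyl-CoA hydratase domain genes held the largest change of the 31. Echdc3, a mitochondrial member whose reaction is less well defined (ENSMUSG00000039063, chromosome 2, 6188465 to 6213033), was at 11.1, 38.9 and 19.8 CPM in Acss2-KO and at 74.0, 81.6 and 74.0 CPM in WT. Its level was 3.59-fold lower (log2 fold change -1.84, SE 0.38, adjusted p = 0.0089), the groups were separate, and it passed under all 18 alternatives. In the RefSeq annotation the Echdc3 locus shares 19783 bases with the noncoding RNA gene A230108P19Rik, which has no level here. Echdc1, which removes ethylmalonyl-CoA formed in fatty acid synthesis (ENSMUSG00000019883, chromosome 10, 29313166 to 29346661), was at 2.93, 9.65 and 7.21 CPM in Acss2-KO and at 12.6, 14.8 and 15.9 CPM in WT (log2 fold change -1.14, SE 0.33, adjusted p = 0.029). The groups did not overlap, but the call was lost with quantile scaling (0.056) and without Acss2-KO replicate 3 (0.059), WT replicate 1 (0.059), WT replicate 2 (0.086) or WT replicate 3 (0.11). Its end overlaps 2486 bases of Rnf146, which averaged 35.5 CPM in Acss2-KO and 16.8 CPM in WT, so reads in that stretch are uncertain. Echdc2, the remaining gene of this group, with no settled role, averaged 197 ± 8.60 CPM in Acss2-KO and 207 ± 43.7 CPM in WT (log2 fold change -0.05, adjusted p = 0.87), and its sign turned under each of the 4 other scalings.

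Electrons leave the dehydrogenases through the electron transfer flavoprotein, and none of its 3 genes passed. Etfdh, the flavoprotein's oxidoreductase to coenzyme Q, was at 360, 556 and 488 CPM in Acss2-KO and at 639, 639 and 537 CPM in WT (log2 fold change -0.39, 95% interval -0.89 to 0.11, adjusted p = 0.20). The highest Acss2-KO library exceeded the lowest WT library. Etfa, the alpha subunit, averaged 269 ± 39.4 CPM in Acss2-KO and 362 ± 44.7 CPM in WT, with no overlap (log2 fold change -0.43, adjusted p = 0.12). Etfb, the beta subunit, averaged 67.8 ± 5.62 CPM in Acss2-KO and 74.8 ± 8.08 CPM in WT, with overlap (log2 fold change -0.14, adjusted p = 0.54). The Etfa to Etfb ratio in CPM was 3.96 ± 0.261 in Acss2-KO and 4.83 ± 0.0777 in WT (SD, n = 3 each, exact permutation test, two-sided p = 0.1, the smallest possible).

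**Figure D3:**
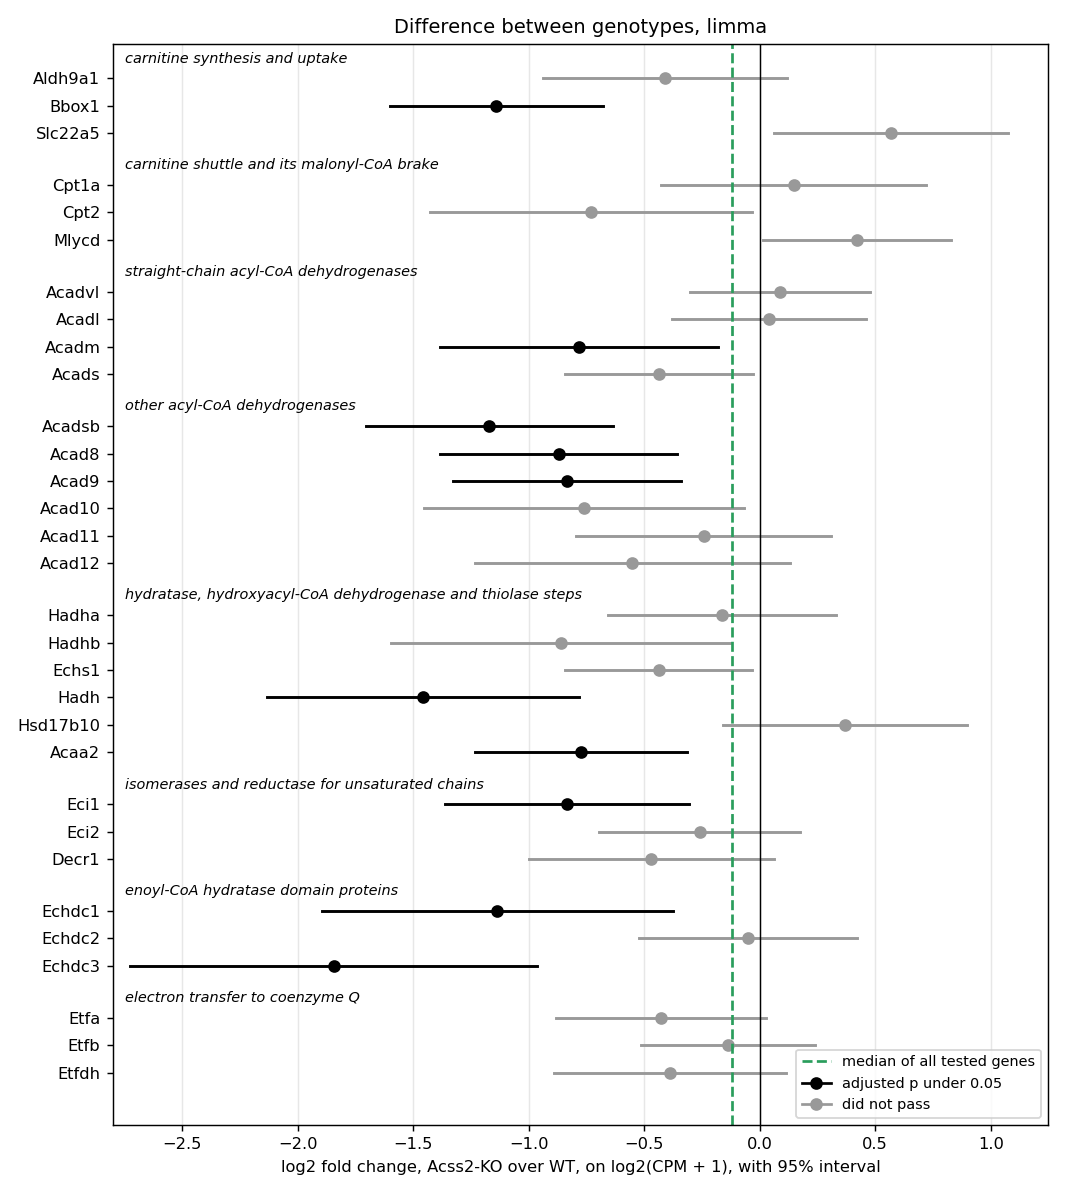
Log2 fold change (Acss2-KO over WT) of the 31 genes with 95% intervals from limma, grouped by role, beside the median of all tested genes at -0.12. The 10 black points, which passed, lie between -1.84 and -0.77, and the widest interval is that of Echdc3.

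Levels were compared between genes only per length, as mean CPM per kb of the longest coding transcript. In Acss2-KO the order was Hsd17b10 at 485, Acaa2 at 423, Cpt1a at 281, Acadl at 254 and Acadm at 249 CPM per kb. In WT it was Acaa2 at 716, Acadm at 411, Hsd17b10 at 380, Hadh at 319 and Hadhb at 289 CPM per kb. At the low end, Acad9 was at 2.63 CPM per kb in Acss2-KO and 4.72 CPM per kb in WT, and Echdc1 at 2.16 CPM per kb in Acss2-KO and 4.74 CPM per kb in WT. Hadh stood at 123 CPM per kb in Acss2-KO, below Hadha and Hadhb at 172 CPM per kb each. These are levels, and the transcripts used for length may differ from those the authors counted.

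The 10 genes that fell were not equally low in the 3 Acss2-KO libraries. Acss2-KO replicate 1 was the lowest of the 3 and replicate 2 the highest in 10 of the 10, against 72.2% and 74.1% of all genes that were lower. Over all 31 genes, replicate 1 was the lowest in 26 and replicate 2 the highest in 26, against 42.8% and 35.9% of all tested genes. Ties were given to the lower replicate number, and among the 26 Acadvl was level in replicates 1 and 3. The median log2 ratio of the 31 genes to the WT mean was -0.76 in replicate 1, -0.21 in replicate 2 and -0.47 in replicate 3. Over all tested genes it was -0.14, -0.14 and -0.07. In replicate 1, 24 of the 31 genes (77.4%) lay below the lowest WT library, in replicate 2 it was 14 (45.2%) and in replicate 3 it was 21 (67.7%). Over all tested genes these shares were 45.5%, 43.6% and 41.2%. The summed level of the 31 genes was 7436, 9987 and 8534 CPM in the Acss2-KO libraries and 11538, 11136 and 10648 CPM in the WT libraries, without overlap. Replicate 1 is the library with muscle transcripts, replicate 2 lay nearest to WT on the leading principal component (scores -62.4, -16.9 and -44.0 in Acss2-KO and 38.0 to 45.6 in WT), and the part of either in this order was not tested.

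**Figure D4:**
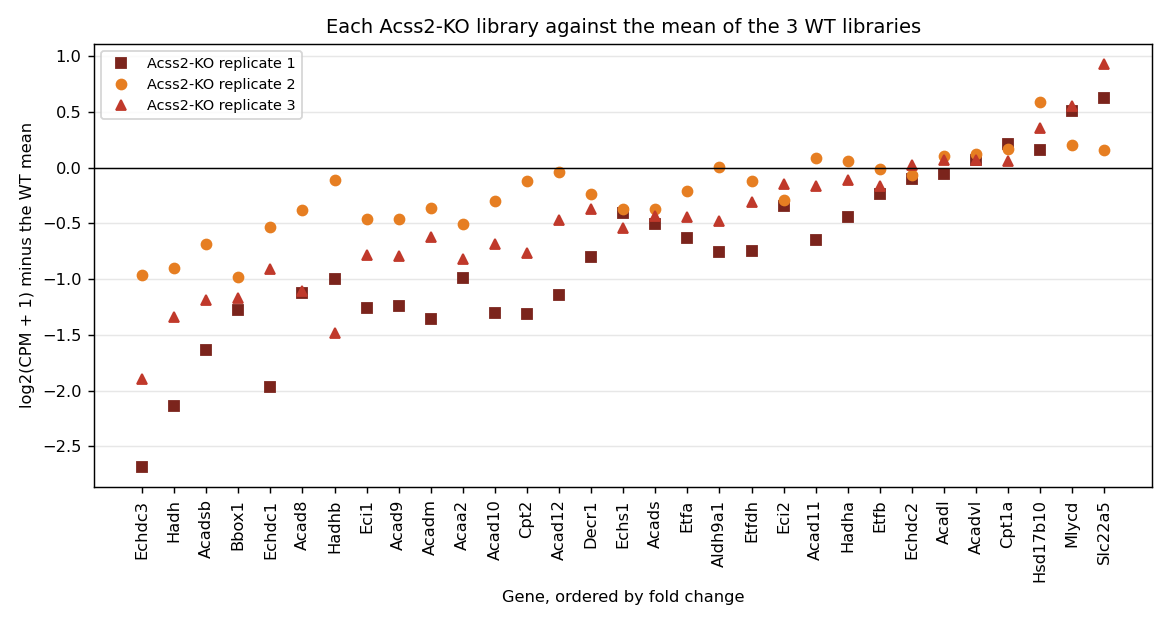
Log2(CPM + 1) of each Acss2-KO library minus the mean of the 3 WT libraries, for the 31 genes ordered by fold change. Acss2-KO replicate 1 is the lowest point in 26 genes (level with replicate 3 for Acadvl) and replicate 2 the highest in 26.

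Promoter windows were looked at because nuclear receptors such as PPARα and ERRα are known to drive these genes during a fast. Windows are shown for Echdc3 and Hadh, the genes with the largest falls, for Acadm, and for Cpt1a, which did not pass. Capitals mark AGGTCA, the core site of these receptors, or its reverse complement. The GRCm38.p6 positions are chr2:6212945-6213244 (minus) for Echdc3, chr3:131272052-131272351 (minus) for Hadh, chr3:153944594-153944893 (minus) for Acadm and chr19:3323051-3323350 (plus) for Cpt1a.
Echdc3: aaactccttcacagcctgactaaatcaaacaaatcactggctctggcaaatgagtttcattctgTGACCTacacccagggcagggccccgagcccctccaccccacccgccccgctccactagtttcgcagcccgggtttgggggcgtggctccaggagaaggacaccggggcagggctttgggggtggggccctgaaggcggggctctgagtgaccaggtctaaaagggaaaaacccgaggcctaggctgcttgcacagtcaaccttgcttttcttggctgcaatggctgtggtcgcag
Hadh: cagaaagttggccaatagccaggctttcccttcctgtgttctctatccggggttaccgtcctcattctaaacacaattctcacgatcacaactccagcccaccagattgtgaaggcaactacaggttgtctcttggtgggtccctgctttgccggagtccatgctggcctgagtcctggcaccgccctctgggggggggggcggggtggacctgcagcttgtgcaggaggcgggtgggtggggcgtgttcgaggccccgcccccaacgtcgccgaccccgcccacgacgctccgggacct
Acadm: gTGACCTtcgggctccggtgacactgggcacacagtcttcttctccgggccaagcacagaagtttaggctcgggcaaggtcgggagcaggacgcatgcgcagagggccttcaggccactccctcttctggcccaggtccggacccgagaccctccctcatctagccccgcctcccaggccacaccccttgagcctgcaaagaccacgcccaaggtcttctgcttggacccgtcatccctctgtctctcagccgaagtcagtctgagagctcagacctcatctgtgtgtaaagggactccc
Cpt1a: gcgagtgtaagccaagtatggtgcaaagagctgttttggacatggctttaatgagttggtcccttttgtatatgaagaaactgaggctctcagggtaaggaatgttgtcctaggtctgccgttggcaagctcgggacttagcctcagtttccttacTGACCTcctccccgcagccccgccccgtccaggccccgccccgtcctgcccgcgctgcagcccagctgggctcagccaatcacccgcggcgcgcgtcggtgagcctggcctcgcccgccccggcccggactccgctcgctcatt
The core site lay 186 bases before the start in Echdc3, 249 in Acadm and 94 in Cpt1a, and these letters were not in the Hadh window. Among the 28 genes with a window, 5 held it (Acadm, Acadvl, Cpt1a, Echdc3 and Echs1), against 16.3% of all windows, and 2 of the 5 fell. The direct repeat of this site known as DR1 (0.381% of all windows), the extended site TNAAGGTCA that contains the core site (1.28%) and the element TGACGTCA (1.79%) were in 0 of the 28. The E-box CACGTG (7.15%) was in the Echdc2 window alone. These letters outside the window were not searched.

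Among 21 tested genes that regulate oxidation, 4 were higher and 3 lower, against 13.4% and 23.1% of all tested genes. Ppara, the nuclear receptor that drives hepatic oxidation in a fast, was at 104, 105 and 105 CPM in Acss2-KO and at 251, 276 and 154 CPM in WT (log2 fold change -1.07, SE 0.24, adjusted p = 0.0093). Sirt3, the mitochondrial deacetylase known to act on Acadl, averaged 63.1 ± 1.31 CPM in Acss2-KO and 95.3 ± 9.54 CPM in WT (log2 fold change -0.58, adjusted p = 0.022). Neither overlapped between the genotypes, and Sirt3 lost its call without Acss2-KO replicate 3 (adjusted p = 0.084) or WT replicate 1 (0.075) and with median-of-ratios (0.052) or trimmed-mean scaling (0.055). Ppargc1b, a coactivator of ERRα and PPARα, averaged 19.5 ± 9.92 CPM in Acss2-KO and 5.77 ± 1.20 CPM in WT (log2 fold change 1.51, SE 0.32, adjusted p = 0.0080). Nrip1, a corepressor of oxidative genes, averaged 41.1 ± 10.4 CPM in Acss2-KO and 16.6 ± 4.01 CPM in WT (log2 fold change 1.26, SE 0.25, adjusted p = 0.0058). Esrra, which encodes ERRα, and Sirt1, a nuclear deacetylase that acts on PGC-1α, were the other genes of this list that were higher, and both are outside the rule for named genes and were chosen after their values were seen. Esrra was at 69.1, 32.2 and 56.5 CPM in Acss2-KO and at 29.9, 28.1 and 28.2 CPM in WT, without overlap (log2 fold change 0.78, SE 0.26, adjusted p = 0.043). Sirt1 averaged 17.0 ± 4.01 CPM in Acss2-KO and 9.93 ± 1.94 CPM in WT, also without overlap (log2 fold change 0.71, SE 0.22, adjusted p = 0.034). Esrra lost its call on leaving out Acss2-KO replicate 1 (adjusted p = 0.12), Acss2-KO replicate 3 (0.14), WT replicate 1 (0.088), WT replicate 2 (0.097) or WT replicate 3 (0.12), and with limma without its robust and trend options (0.053). Sirt1 lost its call on leaving out Acss2-KO replicate 1 (0.099), Acss2-KO replicate 3 (0.11), WT replicate 2 (0.11) or WT replicate 3 (0.084). The higher count was 2 without any 1 of Acss2-KO replicate 1, Acss2-KO replicate 3, WT replicate 2 or WT replicate 3. The lower count was 1 without Acss2-KO replicate 3 or WT replicate 1, and also with median-of-ratios or trimmed-mean scaling.

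Acad9 and Hsd17b10 work in complexes whose other parts formed a list of 6 tested genes. Of these, 5 were lower and 0 higher, against 23.1% and 13.4% of all tested genes. All 6 were separate between the genotypes, against 52.9% of all tested genes. Tmem126b, a complex I assembly factor that binds ACAD9, was at 6.63, 7.89 and 6.45 CPM in Acss2-KO and at 18.4, 17.8 and 26.7 CPM in WT (log2 fold change -1.44, SE 0.20, adjusted p = 0.0015). Ndufaf1 (log2 fold change -1.32, SE 0.20) and Timmdc1 (log2 fold change -1.41, SE 0.24), of the same assembly complex, and Trmt10c, a subunit of the mitochondrial RNase P (log2 fold change -0.93, SE 0.20), were also lower. The 5 lower genes were at 6.45 to 34.1 CPM. With a minimum of 20 CPM the count was 0, because that filter removes the low genes from the test.

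Of 22 tested genes that oxidise propionyl-CoA and branched-chain acyl-CoA, steps next to Acadsb and Acad8, 10 were lower and 0 higher. The shares over all tested genes were 23.1% and 13.4%. The median log2 fold change was -0.62, against -0.12 over all tested genes. Mmab, a cobalamin adenosyltransferase of the propionyl-CoA route, was at 1.29, 6.06 and 3.48 CPM in Acss2-KO and at 18.1, 22.0 and 25.5 CPM in WT (log2 fold change -2.44, SE 0.37, adjusted p = 0.0028). Mmaa, its partner in cobalamin handling (-1.22, SE 0.25), Bckdk, the kinase that inhibits the branched-chain ketoacid dehydrogenase (-1.10, SE 0.20), and Hibadh of valine breakdown (-1.05, SE 0.22) were also lower on the log2 scale. On leaving out 1 library, the lower count was 5 (Acss2-KO replicate 1), 15 (Acss2-KO replicate 2), 4 (Acss2-KO replicate 3), 5 (WT replicate 1) or 5 (WT replicate 2). It was 6 with median-of-ratios or trimmed-mean scaling or a minimum of 20 CPM.

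Of 13 tested genes in the list of acyl-CoA synthetases and related enzymes, 6 were lower and 1 higher. The shares over all tested genes were 23.1% and 13.4%. Acsl3 (log2 fold change -1.55, SE 0.23), Acot13, a thioesterase (-1.37, SE 0.27), and the medium-chain Acsm3 (-1.10, SE 0.24) were lower, and Acsl4 was higher (1.20, SE 0.22). Acsl1, outside the rule for named genes and chosen after its values were seen, did not pass. It averaged 1701 ± 181 CPM in Acss2-KO and 1513 ± 516 CPM in WT (log2 fold change 0.23, adjusted p = 0.55). The lower count was 3 without Acss2-KO replicate 3, WT replicate 1 or WT replicate 2, and 4 without WT replicate 3. Among 9 genes of flavin supply and coenzyme Q, 2 were lower and 1 higher, against 23.1% and 13.4% of all tested genes. Coq3, a methyltransferase of coenzyme Q synthesis, was lower (-1.43, SE 0.31, adjusted p = 0.0094, or 0.053 on leaving out WT replicate 3). The riboflavin transporter gene Slc52a2 was higher (0.81, SE 0.18, adjusted p = 0.0098, or 0.051 on leaving out Acss2-KO replicate 3). The lower count was 1 without any 1 of Acss2-KO replicate 1, Acss2-KO replicate 3, WT replicate 1 or WT replicate 2, and the higher count was 0 in the absence of Acss2-KO replicate 3. Under other scalings the higher count was 3 with trimmed-mean and 2 with median-of-ratios, upper-quartile or quantile scaling, and the lower count 1 with median-of-ratios, trimmed-mean or quantile scaling. With a minimum of 20 CPM 1 was lower and 0 were higher.

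Ketone body synthesis uses the acetyl-CoA that beta-oxidation releases. Bdh1, the hydroxybutyrate dehydrogenase, was at 16.9, 156 and 38.1 CPM in Acss2-KO and at 635, 644 and 431 CPM in WT (log2 fold change -3.55, SE 0.80, adjusted p = 0.022). Acat1, a mitochondrial thiolase that also stands in the branched-chain list, was at 185, 662 and 385 CPM in Acss2-KO and at 885, 885 and 1160 CPM in WT (log2 fold change -1.42, SE 0.41, adjusted p = 0.029). The genotypes did not overlap for either gene, and Acss2-KO replicate 2 was the nearest to WT for both. The log2 fold change of Bdh1 was -2.84 on leaving out Acss2-KO replicate 1 and -4.41 on leaving out Acss2-KO replicate 2. Bdh1 lost its call on leaving out Acss2-KO replicate 3 (adjusted p = 0.069), WT replicate 1 (0.088) or WT replicate 2 (0.096). Acat1 lost its call on leaving out Acss2-KO replicate 3 (0.077), WT replicate 1 (0.069), WT replicate 2 (0.071) or WT replicate 3 (0.10).

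Of 23 nuclear-encoded mitochondrial markers, of the matrix and both membranes, 4 were higher and 2 lower, against 13.4% and 23.1% of all tested genes. The markers had a median log2 fold change of 0.13. Their summed level was 5165 to 5648 CPM in Acss2-KO and 4858 to 5488 CPM in WT. Fh1, fumarase, was higher (log2 fold change 1.09, SE 0.26), while Glud1, glutamate dehydrogenase, was lower (-1.06, SE 0.22). No test of the difference between these markers and the beta-oxidation genes was made. Hepatocyte zone markers moved beside the beta-oxidation genes. Of 10 tested pericentral markers 9 were lower, with sums of 7006, 10866 and 6969 CPM in Acss2-KO and 21351, 21183 and 15701 CPM in WT. Of 12 periportal markers 7 were higher and 1 lower, against 13.4% and 23.1% of all tested genes. The part of the zone markers in the beta-oxidation result was not tested.

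**Figure D5:**
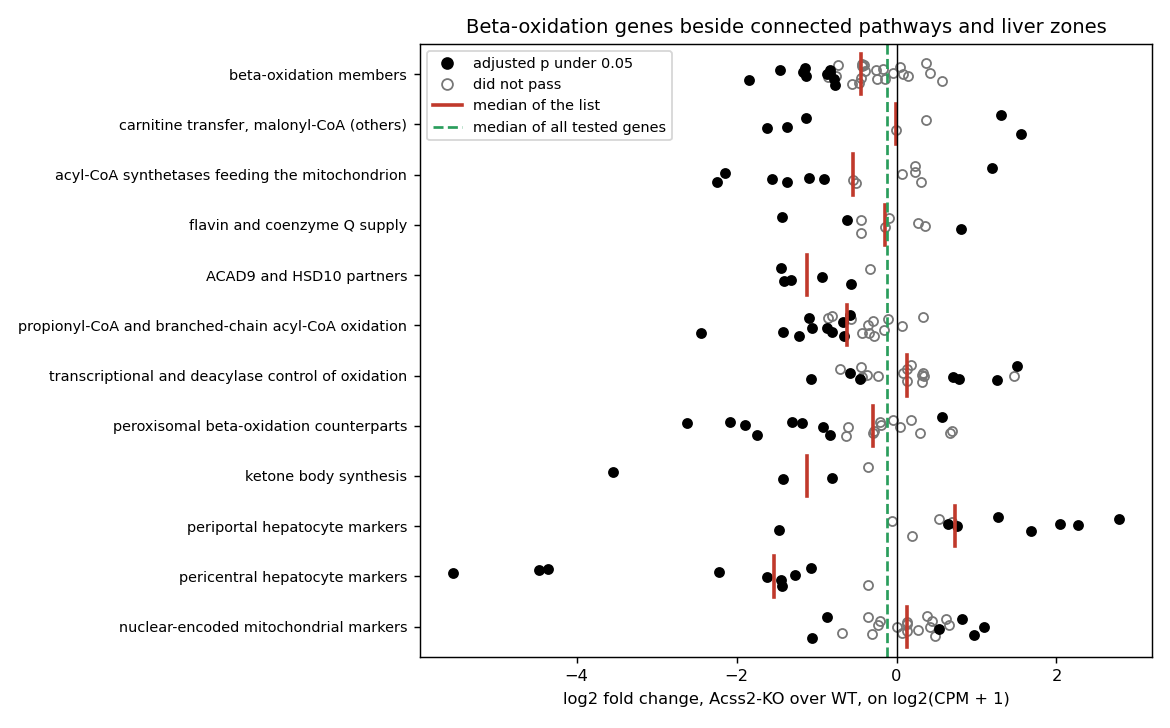
Log2 fold changes (Acss2-KO over WT) of single genes in the beta-oxidation set, the connected lists, the zone markers and the mitochondrial markers, filled where the adjusted p is under 0.05, with each list's median and the median of all tested genes. The beta-oxidation genes have a median of -0.44 with 10 filled points, all below 0, and the mitochondrial markers a median of 0.13.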

How the data were processed

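Values of 3 Acss2-KO and 3 WT liver RNA libraries came from 1 deposited table. The authors deposited log2 CPM values per library with 2 decimals, per the values in the file, in which anything under 1 CPM is listed at 0. They also deposited their own log2 fold changes and p-values, and the sources used here do not name the tool. The submitters' processing notes name Bowtie 0.12.2 and mm8, in roles that are not stated. The deposited positions match GRCm38.p6 (median distance of gene starts 8 bp), as which they are printed. The counting of multiply matching, overlapping or antisense reads is not given.

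CPM was computed from the deposited values, and 1 CPM stood in for a listed 0. The test was limma 3.58.1 (R 4.3.3, statmod 1.5.0, robust, with a variance trend) on log2(CPM + 1) of genes averaging 5 CPM or more, without covariates, with Benjamini-Hochberg adjustment over 9355 genes and a threshold of 0.05. The log2(CPM + 1) scale understates the change of low genes. The design allowed for counts or normalized values, and the second applied. Whole reads could not be recovered from rounded log values, so depth was estimated from the steps of low values, and 5 CPM corresponded to 109 to 154 reads. Errors are SD for group means and SE for log2 fold changes. The procedure was tested on simulated data with far fewer changed genes than were called here and no outlying library. That simulation therefore cannot show how the calls behave when many genes change or 1 library stands apart. Promoter windows are from RefSeq (GRCm38.p6). Of the 32 genes, 28 matched, and Acaa2, Acad9, Decr1 and Tmlhe had no entry used here. Lengths come from the GENCODE vM1 annotation.

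The genes and the 20 lists beside them (251 entries, 219 found) were chosen with earlier results of these data known. Every member past the threshold and the 5 most abundant others are given by library, with up to 4 passing genes per connected list. Same-numbered libraries did not deviate together more than others, with correlations inside the range of differently numbered ones (-0.146 to 0.175). The main fit therefore used no pairing, but so few correlations cannot exclude that the numbers pair the samples. Alternatives were other pseudocounts, scalings and filters, each library left out, WT replicate 2 and Acss2-KO replicate 1 left out together, a replicate block, and limma without its robust and trend options. Some genes of the connected lists are not reported here by name.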

Additional observations from a re-analysis of the deposited data

How the results depend on the processing

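A level of 5 CPM, near that of Echdc1 in Acss2-KO, corresponded to 109 to 154 reads, and the number of libraries, 3 per genotype, limits the calls. Without 1 library at a time, members lower numbered 4 to 15 and members higher 0 to 1, with a member median of -0.58 to -0.33, while over all genes 519 to 1608 were higher and 1239 to 2420 lower. Leaving out both WT replicate 2 and Acss2-KO replicate 1, 4 members were lower, and over all genes 715 were higher and 1319 lower. With a minimum of 20 CPM, 741 genes were higher and 1112 lower, since fewer genes were tested.

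On CPM 1252 genes were higher and 2161 lower (36.7% of calls higher). The split was 1753 and 1681 with median-of-ratios scaling, 1656 and 1805 with upper-quartile, 1780 and 1639 with trimmed-mean and 1791 and 1624 with quantile scaling. The median of all genes, -0.12 on CPM, was 0.01, -0.03, 0.02 and 0.02 under these scalings. Under each of the 4, Slc22a5 and Mlycd were the 2 members higher, and the median of members was -0.30 with trimmed-mean and -0.27 with quantile scaling. The cause of these changes was not tested. Bbox1, Acadsb, Hadh and Echdc3 passed under all 18 alternatives.

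Signs turned for genes that passed under none of them. Leave-one-out ranges of the log2 fold change were -0.12 to 0.30 for Cpt1a, -0.022 to 0.11 for Acadl, -0.23 to 0.070 for Echdc2 and -0.065 to 0.11 for Slc25a20. Hadha was 0.034 with quantile scaling and Acad11 0.015 with both libraries left out. Echdc2 was 0.081 with median-of-ratios, 0.043 with upper-quartile, 0.089 with trimmed-mean and 0.11 with quantile scaling. Slc25a20 was 0.13, 0.090, 0.14 and 0.16 under the same scalings, and 0.11 with both libraries left out. With the replicate number as a block, 10 members were lower and 0 higher (1260 higher and 2137 lower over all genes). Same-numbered libraries correlated at -0.10, -0.14 and 0.09 in their deviations from the group means.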

Other observations

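Peroxisomes carry out a parallel shortening of very long and branched chains. Of 21 tested peroxisomal genes 8 were lower and 1 higher, against 23.1% and 13.4% of all tested genes. The median log2 fold change was -0.29, against -0.12 over all tested genes. Abcd2, a transporter of very-long-chain acyl-CoA, was at 3.68, 12.8 and 8.69 CPM in Acss2-KO and at 51.6, 60.1 and 44.3 CPM in WT (log2 fold change -2.62, SE 0.36, adjusted p = 0.0019). Acaa1b, a peroxisomal thiolase, averaged 393 ± 168 CPM in Acss2-KO and 1277 ± 352 CPM in WT (log2 fold change -1.74, SE 0.32, adjusted p = 0.0048). Acaa1b has a near-identical copy in Acaa1a, so its reads are uncertain. On leaving out 1 library, the lower count was 5 (Acss2-KO replicate 3), 4 (WT replicate 1) or 4 (WT replicate 2). The higher count was 3 (Acss2-KO replicate 1) or 0 (Acss2-KO replicate 3, WT replicate 1 or WT replicate 2).

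The remaining marker lists were counted as follows, beside 13.4% of all tested genes higher and 23.1% lower. Of 10 tested endothelial markers 1 was higher and 1 lower, and of 9 stellate cell and fibroblast markers 2 were lower. Of 9 hepatocyte markers 2 were higher and 1 lower. The cholangiocyte list had 1 gene higher and 1 lower of 2 tested, the lymphocyte and neutrophil list 1 lower of 1, and the adipocyte list 1 higher of 1 (Fabp4). None of the 4 tested muscle markers passed limma, and 0 of them had an unadjusted p under 0.05.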
